A study of Mus musculus with 9 samples.

Results

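Cxcl9, Cxcl10 and Cxcl11 are the genes of the 3 chemokines that bind the receptor CXCR3, and Ifngr1 and Ifngr2 encode the chains of the interferon-gamma receptor. Cxcl11 is a transcribed pseudogene in the annotation used, so it may encode no chemokine in these cells. The levels of these 5 genes were followed in mouse dendritic cells (DC) left untreated or treated with trichostatin A (TSA) or butyrate. The 5 genes were chosen by symbol with earlier results of the same arrays in view, and all 7 of their probe sets with exactly 1 symbol are described, out of 20380 such probe sets for 12393 genes. Because their levels and group differences led to the choice, both are given as a description and carry no p-value.

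The cells were Flt3L-elicited DC from spleen, taken at 6 to 8 weeks of age from mice carrying B.16 tumors that express Flt3L (a growth factor for DC) and selected with CD11c beads. Total RNA of 3 untreated, 3 TSA treated and 3 Butyrate treated samples was hybridized to 9 one-colour Affymetrix arrays, so the tumour, Flt3L and the bead selection are shared by all groups, controls included. Sex, strain, dose, duration and whether the samples of a group came from separate mice are not given in the labels, and p-values therefore measure only the spread between these samples, which may be technical. Values are levels on the log2 scale, made by the authors with RMA, and a difference of 1 is a 2-fold change.

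Interferon-gamma binds Ifngr1, its high-affinity chain, and signals together with Ifngr2 through the kinases Jak1 and Jak2. The signal induces the factor Irf1 and switches on chemokines such as Cxcl9, Cxcl10 and Cxcl11, which draw activated T cells and NK cells. Cxcl9 depends mainly on interferon-gamma, whereas Cxcl10 also responds to type I interferons, tumour necrosis factor and Toll-like receptor ligands through interferon-response and NF-kB elements. Both TSA, a hydroxamate, and butyrate, which gut bacteria produce, are inhibitors of histone deacetylases, and the comparison asks where their effects on these genes part.

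The chemokine genes are neighbours on mouse chromosome 5, with Art3 between Cxcl9 and Cxcl10 in the RefSeq gene order (GRCm38.p6), while Ifngr1 lies on chromosome 10 and Ifngr2 on chromosome 16. In that annotation of C57BL/6J mice Cxcl11 is a transcribed pseudogene and the other members are protein-coding. The promoter windows of Cxcl9 and Cxcl10, the members with the largest differences between the inhibitors, are shown to let their elements be compared. Each runs from 250 bases before to 50 bases after the RefSeq start on the minus strand (GRCm38.p6), at chr5:92328030-92328329 for Cxcl9 and at chr5:92348840-92349139 for Cxcl10. Capitals mark matches on either strand to the motifs named after the sequences.
Cxcl9: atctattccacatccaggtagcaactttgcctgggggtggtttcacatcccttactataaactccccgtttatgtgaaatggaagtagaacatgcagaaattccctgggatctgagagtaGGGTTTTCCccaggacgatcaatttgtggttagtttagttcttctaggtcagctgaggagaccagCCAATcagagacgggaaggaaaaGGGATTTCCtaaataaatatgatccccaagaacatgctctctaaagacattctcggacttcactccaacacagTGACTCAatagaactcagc
Cxcl10: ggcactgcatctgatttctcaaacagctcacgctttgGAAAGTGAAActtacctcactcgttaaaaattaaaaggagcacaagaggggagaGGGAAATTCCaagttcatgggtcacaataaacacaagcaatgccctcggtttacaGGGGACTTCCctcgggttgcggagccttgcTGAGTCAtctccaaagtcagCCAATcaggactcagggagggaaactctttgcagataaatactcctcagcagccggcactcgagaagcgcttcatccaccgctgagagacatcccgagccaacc
The motifs were chosen with these sequences in view, and a match describes letters only. The interferon-response core, GAAA followed by any 2 bases and GAAA, occurs in the Cxcl10 window 1 time, as GAAAGTGAAA at -213 from the start, and not in the Cxcl9 window; 3.4% of 32544 promoter windows of this length hold it. The NF-kB type motif, GGG with any 3 bases and TTCC, occurs 2 times in the Cxcl10 window, as GGGAAATTCC at -159 and GGGGACTTCC at -104, and 5.6% of windows hold it. The shorter form GGGNNTTCC occurs 2 times in the Cxcl9 window, as GGGTTTTCC at -130 and GGGATTTCC at -42, and 1 time in the Cxcl10 window, where it overlaps the longer form, against 5.8% of windows. Each window also holds 1 match to the AP-1 motif TGANTCA (7.8% of windows) and 1 CCAAT (37.4%). The AP-1 match lies at 31 in Cxcl9, after the start, and at -74 in Cxcl10. The interferon-gamma activation motif TTCNNNGAA is in neither window (8.3%). Looser forms of these motifs were not searched, so a window without a match may still hold an element that responds to interferon-gamma. The longest stretch common to both, CAGCCAATCAG, spans 11 bases around CCAAT, from -68 in Cxcl9 and -57 in Cxcl10, and 0.774% of windows hold it. A window for Cxcl11 was not analysed here.

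The inhibitors parted at the chemokines. Cxcl9 and Cxcl10 were both highest with butyrate, by 1.30 ± 0.115 and 0.73 ± 0.111 (difference ± standard error, log2, n = 3 arrays per group) over untreated cells. With TSA, Cxcl10 was lower than in untreated cells (-0.49 ± 0.111), and Cxcl9 was 0.31 ± 0.115 higher with overlapping arrays. Butyrate thus exceeded TSA by 1.22 ± 0.111 for Cxcl10 and 0.99 ± 0.115 for Cxcl9, or 2.32-fold and 1.98-fold. With both inhibitors the receptor chains differed from untreated cells in opposite directions, Ifngr1 upward and Ifngr2 downward. On the hybridization spike-in scale, described further on, each butyrate minus untreated difference is 0.415 lower and each butyrate minus TSA difference 0.401 lower, and that of Ifngr1 against untreated cells turns to -0.03.

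Cxcl10, also known as IP-10, stood at 7.76, 8.13 and 7.75 on the untreated arrays, at 7.56, 7.30 and 7.31 on the TSA arrays and at 8.48, 8.65 and 8.68 on the butyrate arrays. The groups did not overlap in any pair, and their order was TSA, untreated, butyrate. The mean was 7.88 ± 0.21 (SD, n = 3) without an inhibitor, 7.39 ± 0.15 with TSA and 8.60 ± 0.11 with butyrate, so TSA was 1.41-fold lower and butyrate 1.65-fold higher than untreated. TSA arrays all below and butyrate arrays all above the untreated ones was a pattern of 92 of 12393 genes (0.742%), and of the members Cxcl10 alone. On the hybridization spike-in scale the butyrate and untreated arrays overlapped (0.31). With poly-A spike-ins equalized, the TSA and untreated arrays overlapped (-0.50).

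Cxcl9, also known as MIG, stood at 7.78, 8.11 and 7.80 on the untreated arrays, at 8.40, 8.21 and 8.02 on the TSA arrays and at 9.05, 9.29 and 9.26 on the butyrate arrays. Every butyrate array lay above all others, whereas 1 untreated array reached into the TSA range. The means were 7.89 ± 0.19 (SD, n = 3), 8.21 ± 0.19 and 9.20 ± 0.13, and butyrate was 2.47-fold above untreated. Untreated and TSA are thus neighbours in the order that the spread does not separate. Among the butyrate minus TSA differences of 12393 genes, that of Cxcl10 was the 5th largest and that of Cxcl9 the 12th.

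Cxcl11, the remaining gene of the CXCR3 ligands, was dim. Its brighter probe set stood at 5.38, 5.19 and 5.47 untreated, at 5.62, 5.48 and 5.37 with TSA and at 5.80, 6.04 and 5.86 with butyrate. The butyrate arrays lay above all others, by 0.56 ± 0.093 over untreated and 0.41 ± 0.093 over TSA, and TSA and untreated arrays overlapped (0.14 ± 0.093). Its dimmer probe set lay at 4.81 to 5.19 on all 9 arrays, and no pair of groups was free of overlap there. By level they lie above 32.6% and 23.3% of the probe sets. On the hybridization and poly-A spike-in scales the butyrate arrays of the brighter probe set overlapped the untreated arrays (0.14 and 0.27) and the TSA arrays (0.012 and 0.14).

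**Figure D1:**
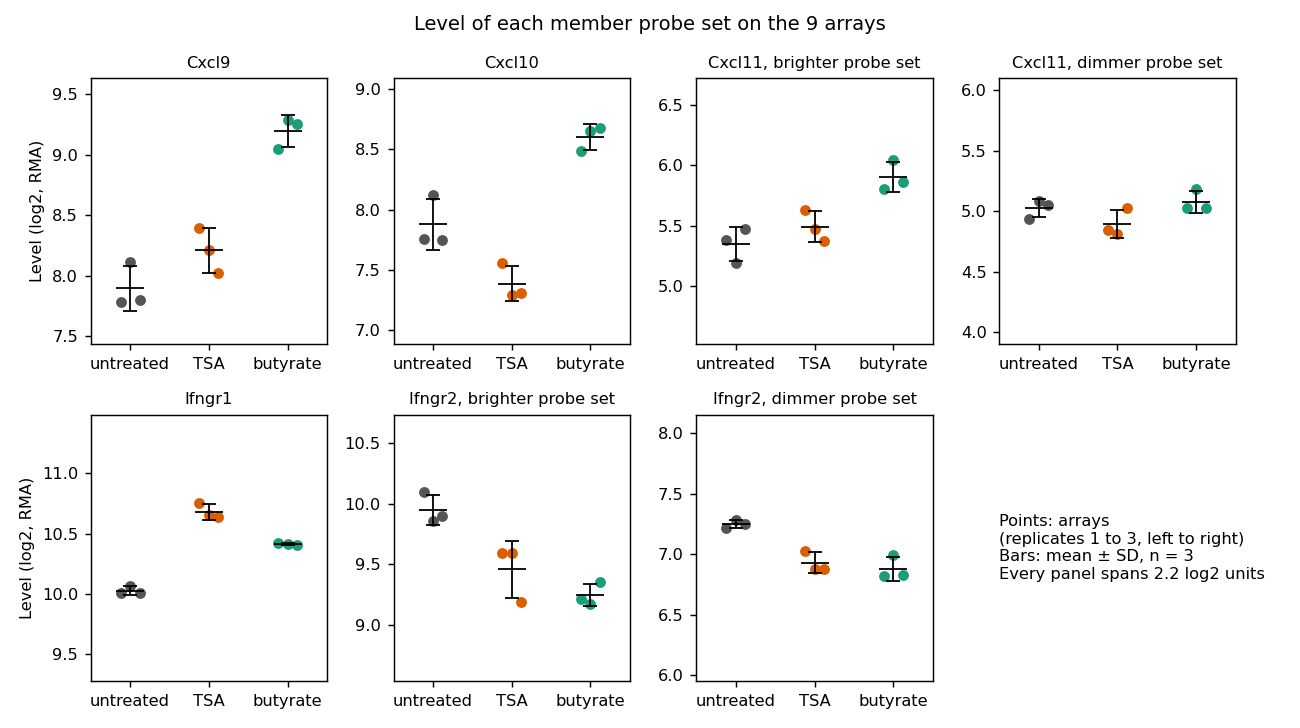
Level (log2, RMA) of each of the 7 member probe sets by group; points are arrays, bars the mean and SD of 3 arrays, and every panel spans the same log2 range. The butyrate arrays are the highest for Cxcl9, Cxcl10 and the brighter Cxcl11 probe set, the TSA arrays are the lowest for Cxcl10, and Ifngr1 and Ifngr2 differ from untreated in opposite directions.

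Ratios of probe sets within an array cancel the array's scale, and those among the chemokines were unequal between the inhibitors. The ratio of Cxcl9 to Cxcl10, set to 0 at its untreated mean, was -0.03 to 0.03 on the untreated arrays. It was 0.82, 0.90 and 0.70 on the TSA arrays and 0.55, 0.62 and 0.56 on the butyrate arrays, so it stood higher with both inhibitors, and more so with TSA. The changes were 0.81 with TSA and 0.58 with butyrate, 1.75-fold and 1.49-fold, and no groups overlapped. Against Cxcl11, Cxcl10 differed by -0.63 with TSA and by 0.17 with butyrate, the latter with overlapping arrays.

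**Figure D2:**
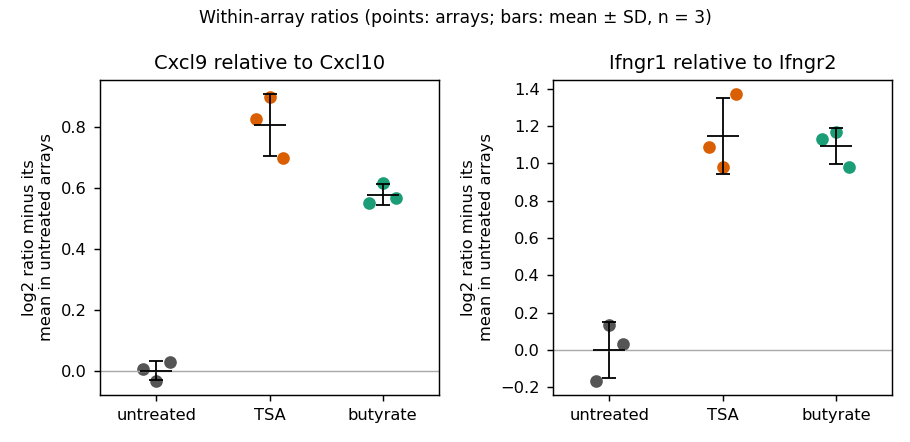
The log2 ratio of Cxcl9 to Cxcl10 and of Ifngr1 to Ifngr2 on each array, minus its mean in untreated arrays; points are arrays, bars the mean and SD of 3. The Cxcl9 to Cxcl10 ratio lies at 0.70 to 0.90 with TSA and 0.55 to 0.62 with butyrate, and the Ifngr1 to Ifngr2 ratio lies at 0.98 to 1.37 with TSA and 0.98 to 1.17 with butyrate.

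Ifngr1, the ligand-binding receptor chain, stood at 10.01, 10.07 and 10.01 untreated, at 10.75, 10.66 and 10.64 with TSA and at 10.42, 10.42 and 10.41 with butyrate. No groups overlapped, and the order was untreated, butyrate, TSA, the reverse of the chemokines for the inhibitors. TSA was 0.65 ± 0.049 above untreated and butyrate 0.39 ± 0.049, which left butyrate below TSA (-0.26 ± 0.049). On the hybridization and poly-A spike-in scales the butyrate and untreated arrays overlapped (-0.03 and 0.10), while the TSA difference hardly moved (0.64 and 0.64).

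Ifngr2, the signalling chain, stood at 10.09, 9.86 and 9.90 untreated, at 9.59, 9.60 and 9.19 with TSA and at 9.22, 9.17 and 9.35 with butyrate in its brighter probe set. Both inhibitors lay below all untreated arrays, with differences of -0.50 ± 0.111 for TSA and -0.71 ± 0.111 for butyrate, and the inhibitors overlapped (-0.21 ± 0.111). Without TSA replicate 3 the difference between the inhibitors was -0.35, and on the hybridization spike-in scale it was -0.61, with every butyrate array below the TSA arrays. The dimmer probe set gave the same order with smaller differences, -0.32 ± 0.066 and -0.37 ± 0.066. Within arrays the ratio of Ifngr1 to Ifngr2 was 1.15 above its untreated mean with TSA and 1.09 above it with butyrate, and the ranges of the inhibitors overlapped.

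Counted over the 5 genes, the TSA and untreated arrays did not overlap for 3 (1 above and 2 below), beside 54.9% of all 12393 genes, 31.0% above and 23.9% below. Butyrate and untreated arrays did not overlap for 5 (4 above, 1 below), beside 62.7% of all genes, 36.5% above and 26.2% below. Butyrate and TSA arrays did not overlap for 4, the 3 chemokines above and Ifngr1 below, beside 50.3% of all genes, 24.5% above and 25.8% below. After equalizing the hybridization spike-ins, butyrate and untreated arrays did not overlap for 2 (Cxcl9 above, Ifngr2 below), and butyrate and TSA arrays for 4 (Cxcl9 and Cxcl10 above, both receptor chains below). With poly-A spike-ins equalized these counts were 3 and 3, and that of TSA against untreated was 2. Since these values chose the members, nothing is read from the counts. Both inhibitors share the untreated arrays.

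Deviations of single arrays from their group mean played no part in the choice. For Cxcl9 and Cxcl10, untreated replicate 2 was high in both (0.22 and 0.25), TSA replicate 1 was high in both (0.19 and 0.17), and butyrate replicate 1 was low in both (-0.15 and -0.12). Pearson's r over the 9 arrays was 0.926 and Spearman's rho 0.75, with p = 0.037 and 0.0417 in an exact two-sided permutation test within groups. Over the 10 pairs of members the adjusted p was 0.208, so the relation did not pass the correction. Without the 2 arrays farthest out r was 0.951, and Cxcl10 ranked 17th of 12392 genes by r with Cxcl9. Ifngr1 followed Cxcl9 with r = 0.791 (rho 0.683, exact permutation p = 0.0417 and 0.106, adjusted p = 0.208 for r, r = 0.666 without the 2 farthest arrays). Cxcl11 (r = 0.174) and Ifngr2 (0.293) did not stand out, with exact permutation p of 0.676 and 0.625.

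The ligand and the signalling genes around the receptor were tested with limma over all 12393 genes and adjusted by the Benjamini-Hochberg method, and a gene is said to rise or fall at an adjusted p under 0.05. Interferon-gamma itself, Ifng, lay at 3.83 to 4.07 in the group means, under the 25th percentile of probe sets (5.10), and was not called (butyrate minus TSA 0.24 ± 0.101, limma adjusted p = 0.0915). Of 16 measured genes of the signalling list, 1 rose and 10 fell with TSA, with a median of -0.37 (0.03 over all genes), beside 47.3% of all genes called, 26.3% rising and 21.0% falling. With butyrate 3 rose and 5 fell (median -0.05, 0.09 over all genes; 58.4% of all genes called, 33.6% rising and 24.8% falling). Directly against TSA, 8 were higher and 2 lower with butyrate (median 0.26, 0.03 over all genes; 35.9% of all genes called, 15.9% higher and 20.0% lower). On the hybridization spike-in scale this last split turned to 1 higher and 7 lower, and on the poly-A scale to 1 and 2.

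Irf1, the transcription factor that binds interferon-response elements, was lower with TSA, while its difference between the inhibitors was lost on both spike-in scales. It fell by 0.38 ± 0.048 with TSA (limma adjusted p = 6.21e-05), was not called with butyrate (0.06 ± 0.048, adjusted p = 0.329) and was 0.44 ± 0.048 higher with butyrate than with TSA (adjusted p = 0.000109). On the hybridization and poly-A spike-in scales the difference between the inhibitors was 0.04 and 0.17 and was not called (limma adjusted p = 0.674 and 0.448), and the fall with TSA was not called on the latter (-0.40, adjusted p = 0.0553). Irf2 differed by 0.43 ± 0.074 between the inhibitors, and by 0.03 and 0.16 on the spike-in scales, not called. Irf8, a myeloid factor named after its value was seen, differed by 0.32 ± 0.056, and by -0.08 and 0.05 there, not called. Stat2, a mediator of type I interferon, differed by 0.37 ± 0.1, and by -0.03 and 0.09 there, not called. Irf9, its DNA-binding partner, fell with both inhibitors (-0.82 ± 0.056 and -0.72 ± 0.056).

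Jak2, the kinase bound to Ifngr2, fell with both inhibitors (-0.40 ± 0.043 with TSA and -0.61 ± 0.043 with butyrate), and Jak1, bound to Ifngr1, was not called in any comparison (0.07, 0.09 and 0.02, limma adjusted p = 0.299, 0.142 and 0.764). The negative regulators gave differing calls. Socs3, a feedback inhibitor of cytokine receptors, was 1.18 ± 0.064 higher with butyrate than with TSA, and its further probe sets differed by 0.77 and 1.04. It rose by 1.09 ± 0.064 with butyrate and was not called with TSA (-0.08 ± 0.064, limma adjusted p = 0.323). Socs1, the main feedback inhibitor of the interferon-gamma receptor, fell by 0.63 ± 0.138 with TSA and was not called with butyrate (-0.24, adjusted p = 0.158) or between the inhibitors (0.39, adjusted p = 0.0501). The phosphatase Ptpn2, which inactivates Jak1, fell with both (-0.92 ± 0.049 and -0.75 ± 0.049), and Ptpn11 rose by 0.46 ± 0.050 and 0.74 ± 0.050. The coactivator Crebbp fell with both (-0.45 ± 0.068 with TSA and -0.79 ± 0.068 with butyrate).

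Most other genes that interferon-gamma induces were lower with each inhibitor than untreated. Of 31 measured, 0 rose and 22 fell with TSA (median -0.45), and 1 rose and 20 fell with butyrate (median -0.53). Between the inhibitors 3 were higher and 8 lower with butyrate, and 20 were not called (median -0.06). Ido1, which breaks down tryptophan, fell with both inhibitors (-2.65 ± 0.127 with TSA and -2.89 ± 0.127 with butyrate). The guanylate-binding protein gene Gbp2 fell with both (-2.26 ± 0.133 and -2.70 ± 0.133), as did Gbp3 (-1.74 ± 0.093 and -1.84 ± 0.093). The immunoproteasome subunit Psmb10 fell with both (-1.59 ± 0.060 and -1.94 ± 0.060), as did Nampt, which makes NAD (-1.07 ± 0.054 and -1.72 ± 0.054). Ciita, the class II transactivator, fell with both (-0.51 ± 0.045 and -0.97 ± 0.045). The single rise with butyrate was in Igtp, an interferon-inducible GTPase (0.27 ± 0.083, limma adjusted p = 0.0171). Igtp (0.26 ± 0.083), Iigp1 (0.41 ± 0.092) and Gbp7 (0.27 ± 0.071), all named after their values were seen, were the 3 that were higher with butyrate than with TSA, and on the hybridization spike-in scale they were at -0.14, 0.005 and -0.14, not called. Igtp against untreated was -0.14 there. Without TSA replicate 2 the number called between the inhibitors was 6 instead of 11, and on the hybridization spike-in scale it was 0 higher and 28 lower.

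Type I interferon is another inducer of Cxcl10. Of 22 measured genes that it induces, 21 fell and 0 rose with TSA (median -0.84). With butyrate 19 fell and 2 rose (median -0.63), and 6 were higher and 3 lower with butyrate than with TSA (median 0.04). The 6 included the regulator Irf7 (0.71 ± 0.097), the antiviral gene Rsad2 (0.54 ± 0.054) and Cmpk2 (0.54 ± 0.096), and the 3 lower ones Rtp4 (-0.54 ± 0.127). Rsad2 had the same order of groups as Cxcl10, lower with TSA (-0.30 ± 0.054) and higher with butyrate (0.24 ± 0.054), but the latter was -0.17 and -0.04 on the hybridization and poly-A spike-in scales. Ifit1 fell with both inhibitors (-2.20 ± 0.137 with TSA and -2.50 ± 0.137 with butyrate), as did Ifit3 (-2.23 ± 0.118 and -2.28 ± 0.118). The split between the inhibitors was 1 higher and 15 lower on the hybridization spike-in scale, where Rsad2 (0.14) and Cmpk2 (0.14) were no longer called.

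**Figure D3:**
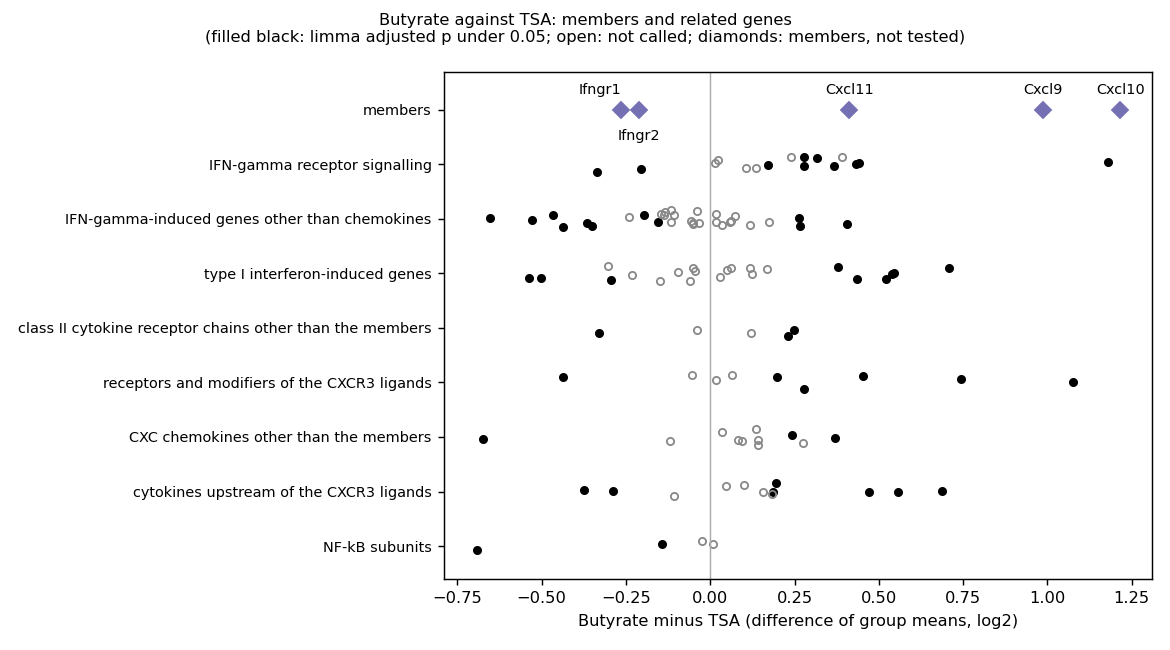
Butyrate minus TSA (difference of group means, log2) for the 5 members (diamonds, not tested) and for each measured gene of 8 related lists; filled points passed limma's adjusted p under 0.05, open points did not. Cxcl9 and Cxcl10 lie at 0.99 and 1.22, beside Socs3 at 1.18 and Padi4 at 1.08, while most interferon-gamma-induced genes lie near or below 0.

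Cytokines that act upstream of the chemokines were split. Tnf, which induces Cxcl10 and acts jointly with interferon-gamma, rose by 0.28 ± 0.084 with TSA and 0.96 ± 0.084 with butyrate, and was 0.69 ± 0.084 higher with butyrate (limma adjusted p = 0.000211). Lta, a relative of Tnf, was 0.56 ± 0.107 higher with butyrate than with TSA, and Il18, an inducer of interferon-gamma, 0.47 ± 0.076. With hybridization spike-ins equalized, Tnf stayed higher with butyrate than with TSA (0.29, limma adjusted p = 0.018), but Lta (0.16), Il18 (0.07) and Tnf with TSA (0.26, adjusted p = 0.0545) were not called. Il12b, a subunit of interleukin 12, which elicits interferon-gamma, fell with both (-4.002 ± 0.087 and -4.29 ± 0.087), as did Il15, a growth factor of NK cells (-0.76 ± 0.068 and -1.14 ± 0.068). Of 12 measured genes, 1 rose and 5 fell with TSA (median 0.01), 5 rose and 4 fell with butyrate (median 0.17), and 5 were higher and 2 lower with butyrate than with TSA (median 0.17). Without TSA replicate 1 the last count was 4 genes instead of 7, and on the hybridization spike-in scale 1 was higher and 8 lower. The NF-kB subunits Nfkb2, Rel, Rela and Relb fell with each inhibitor, 4 of 4 (medians -0.99 and -1.35), with -2.24 ± 0.049 and -2.38 ± 0.049 for Relb. Rel was lower still with butyrate than with TSA (-0.69 ± 0.061), 1 of 2 lower and 0 higher (median -0.08). The other, Relb, was called by a small margin (limma adjusted p = 0.0457), and the count was 1 when any single array other than butyrate replicate 2 was left out. The dimmer Nfkb2 probe set fell less (-0.50 with TSA and -0.18 with butyrate). It was higher with butyrate than with TSA in a limma fit over all probe sets (0.32, adjusted p = 0.00123). Nfkb1 was not measured.

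Among the other CXC chemokines 0 of 11 rose and 6 fell with TSA (median -0.79), and 1 rose and 6 fell with butyrate (median -0.42). The neutrophil attractants Cxcl5 and Ppbp fell with TSA (-3.71 ± 0.083 and -3.38 ± 0.073) and with butyrate (-3.83 ± 0.083 and -3.35 ± 0.073). With both inhibitors Cxcl5 lay at 3.59 to 4.0, under the 25th percentile of probe sets, so its fall may be understated and the inhibitors cannot be compared for it. Ppbp was not called between the inhibitors (0.04 ± 0.073, limma adjusted p = 0.731). Cxcl2 fell with both (-2.64 ± 0.069 and -2.49 ± 0.069). Cxcl16, a transmembrane chemokine, fell with both (-1.37 ± 0.043 and -2.04 ± 0.043). Between the inhibitors 2 were higher and 1 lower with butyrate (median 0.14), namely Pf4 (0.37 ± 0.058) and the dim Cxcl15 (0.24 ± 0.077), and Cxcl16 (-0.67 ± 0.043); Pf4 and Cxcl15 were -0.03 and -0.16 on the hybridization spike-in scale.

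Cxcr3, the receptor of Cxcl9 and Cxcl10, fell with both inhibitors (-1.01 ± 0.116 with TSA and -0.95 ± 0.116 with butyrate). It was not called between them (0.06 ± 0.116, limma adjusted p = 0.699), but with hybridization spike-ins equalized it was at -0.34 (adjusted p = 0.0124). Dpp4, a protease that trims and inactivates CXCR3 ligands, fell with both (-0.93 ± 0.052 and -1.36 ± 0.052), as did its dimmer probe set (-0.62 and -1.06). Padi4 and Padi2 encode enzymes that citrullinate proteins, Cxcl10 among them. Padi4 was 1.08 ± 0.079 and Padi2 0.74 ± 0.081 higher with butyrate than with TSA, and both stayed called on the hybridization scale (0.67 and 0.34). Against untreated cells, Padi4 fell with TSA (-0.90 ± 0.079) and was not called with butyrate (0.18, limma adjusted p = 0.0799). Padi2 was not called with TSA (-0.09, limma adjusted p = 0.419) and rose with butyrate (0.655 ± 0.081). Of 9 genes of receptors and modifiers 0 rose and 6 fell with TSA (median -0.44), 2 rose and 5 fell with butyrate (median -0.16), and 5 were higher and 1 lower with butyrate than with TSA (median 0.20), a split of 2 and 5 on the hybridization spike-in scale. Of the receptor chains related to Ifngr1 and Ifngr2, Il10rb fell most (-1.55 ± 0.059 and -1.88 ± 0.059). Ifnar1 rose by 0.11 ± 0.042 with TSA (limma adjusted p = 0.0498) and 0.36 ± 0.042 with butyrate, values of 0.10 and -0.05 on the hybridization spike-in scale, neither called, and Ifnar2 was not called (0.03 and -0.01, adjusted p = 0.741 and 0.906). In a limma fit over all probe sets, the dimmer Ifnar2 probe set was not called with TSA (-0.02). It was higher with butyrate than untreated (0.17, limma adjusted p = 0.0126) and than with TSA (0.20, adjusted p = 0.014). It was not fitted on the spike-in scales. Of the 5 measured chains 1 rose and 2 fell with TSA, and 1 rose and 1 fell with butyrate. Between the inhibitors 2 were higher and 1 lower, with medians of 0.00, -0.01 and 0.12.

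Neighbours on chromosome 5 that were measured did not all follow the chemokines. Art3, between Cxcl9 and Cxcl10, was not called (butyrate minus TSA 0.09 ± 0.056, limma adjusted p = 0.245), nor were Sdad1 (-0.22 ± 0.132, adjusted p = 0.222) and Nup54 (-0.03 ± 0.054, adjusted p = 0.734). Naaa, also a listed marker of CD8-type DC, and Ppef2, both beyond Sdad1, were 0.51 ± 0.065 and 0.69 ± 0.134 higher with butyrate than with TSA (adjusted p = 0.000253 and 0.00325), and the non-coding gene U90926 0.24 ± 0.076 (adjusted p = 0.0326). Scarb2, on the Cxcl11 side, was lower with butyrate (-0.30 ± 0.049, adjusted p = 0.00123). With hybridization spike-ins equalized, Ppef2 (0.28) stayed called, Naaa (0.11) and U90926 (-0.16) were not called, and Art3 (-0.31), Sdad1 (-0.62) and Nup54 (-0.43) were called lower with butyrate than with TSA. These neighbours were named after their values were seen.

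The genes most like each chemokine were taken among 1040 genes whose group means span at least 1 log2 unit, by Pearson's r over the 9 arrays, which share the group differences. For Cxcl9 they were the decoy receptor Il1r2 (r = 0.972), Phlda1 (0.972), the immediate early gene Fos (0.971), the desaturase Scd1 (0.971) and the BAFF receptor gene Tnfrsf13c (0.962). For Cxcl10 the likeness was lower, with Socs3 (0.925), the cyclin Ccnd2 (0.918), Fos (0.851), Padi4 (0.849) and Phlda1 (0.807). For Cxcl11 they were Sapcd1 (0.942), Tg (0.934), Tnfrsf13c (0.922), Phlda1 (0.913) and Scd1 (0.906). Socs3 and Ccnd2 were not called with TSA (-0.08 and -0.08, limma adjusted p = 0.323 and 0.409), where Cxcl10 was lower without overlap, and both rose with butyrate (1.09 and 1.02).

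Features of the arrays moved with the groups. Hybridization controls (7 spike-in probe sets) averaged 10.36 to 10.41 on the TSA arrays, 10.31 to 10.45 on the untreated and 10.71 to 10.82 on the butyrate arrays. Equalizing them lowers each butyrate minus untreated difference by 0.415 and each butyrate minus TSA difference by 0.401, and equalizing 15 poly-A spike-in probe sets by 0.285 and 0.272. On both scales the butyrate arrays stayed above the TSA arrays for Cxcl9 (0.59 and 0.72) and Cxcl10 (0.82 and 0.94), and above the untreated arrays for Cxcl9 (0.89 and 1.02). Beta-actin signal at the 3′ end exceeded that at the 5′ end by 0.37 to 0.50 on the untreated, 0.59 to 0.67 on the TSA and 0.64 to 0.71 on the butyrate arrays, and its part in the results was not tested.

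**Figure D4:**
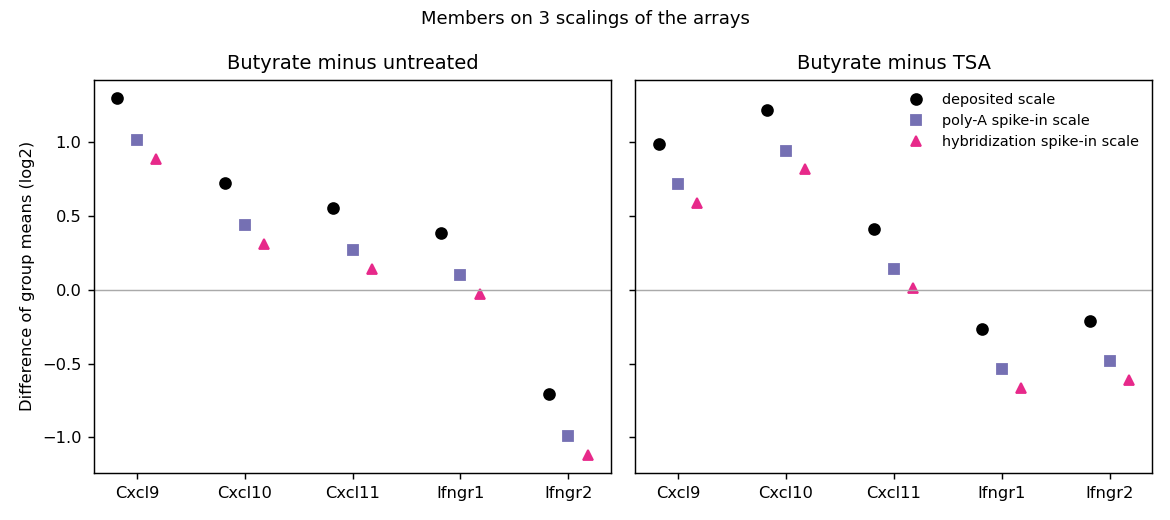
Butyrate minus untreated and butyrate minus TSA (difference of group means, log2) of the 5 members on the deposited scale and after shifting the arrays to equal poly-A or hybridization spike-ins. Cxcl9 and Cxcl10 stay above 0 in both comparisons on each scale, whereas Cxcl11 against TSA (0.01) and Ifngr1 against untreated (-0.03) come to about 0 on the hybridization scale.

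In bulk RNA, fewer cells of a type and less RNA per cell cannot be told apart, and marker lists moved with the groups. The 8 DC markers, among them Itgax, Flt3 and Zbtb46, averaged 11.48 to 11.54 on the untreated, 11.06 to 11.07 on the TSA and 10.91 to 10.95 on the butyrate arrays. None lay below 5.10, the 25th percentile of probe sets. With butyrate against TSA 1 was higher, namely Itgax (0.25), and 3 were lower, while Flt3 and Zbtb46 were not called. Over all genes 15.9% were higher and 20.0% lower in that comparison. On the hybridization spike-in scale 0 of the DC markers were higher and 7 lower. Of 9 NK cell markers, a source of interferon-gamma, 0 were higher and 5 lower with butyrate than with TSA, with list means of 6.84 to 6.87, 6.37 to 6.46 and 5.90 to 5.99 on untreated, TSA and butyrate arrays; Ncr1 and Klra1 lay under the 25th percentile. Of 9 T cell markers 2 were higher and 2 lower (6.96 to 7.02, 6.18 to 6.27 and 6.16 to 6.24), with Trat1 under that level. Of 13 macrophage and monocyte markers, cells that also make these chemokines, 1 was higher and 3 lower (7.88 to 8.01, 7.17 to 7.23 and 6.89 to 7.06). These counts also depended on the scale. With hybridization spike-ins equalized, 0 NK cell markers were higher and 9 lower. The same counts were 0 and 7 for T cells and 0 and 10 for macrophages and monocytes. Of 9 neutrophil markers 3 were higher and 5 lower with butyrate than untreated, where Cxcl9 and Cxcl10 were both higher. With butyrate against TSA 7 of these markers were higher and 0 lower (10.53 to 10.59, 9.85 to 9.94 and 10.10 to 10.14), in that comparison the same direction as Cxcl9 and Cxcl10. Of 9 B cell markers 3 were higher and 0 lower (6.11 to 6.18, 5.79 to 5.84 and 5.98 to 6.07), with Pax5, Fcer2a and Ebf1 under that level, and of 6 erythroid markers 3 were higher and 0 lower (9.48 to 9.59, 9.11 to 9.17 and 9.31 to 9.38). When hybridization spike-ins were equalized, 0 neutrophil markers were higher and 3 lower, 0 and 5 for B cells and 0 and 3 for erythroid cells, and on the poly-A scale no marker of these 3 lists was called. Of 9 markers of CD8-type DC, known makers of Cxcl9, 5 were higher and 2 lower (8.72 to 8.73, 8.48 to 8.51 and 8.42 to 8.47), with Itgae under that level, and 0 were higher and 5 lower on the hybridization spike-in scale. Xcr1, a defining marker of these cells named after its value was seen, was lower with butyrate than with TSA (-1.29 ± 0.072). Of 10 markers of CD11b-type DC 3 were higher and 2 lower, with 1 and 7 on the hybridization spike-in scale. Of 7 plasmacytoid DC markers 1 was higher and 3 lower, with 1 and 6 there. Of 8 melanoma markers, 4 of them under the 25th percentile, 2 were higher and 1 lower, with 0 and 6 there. The part of any of these cell types in the member differences was not tested.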

How the data were processed

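Per the submitters' processing notes the authors used RMA, and the deposited values for 22690 probe sets on 9 arrays have the range of log2 levels. RMA corrects background and quantile-normalizes the arrays, which removes any change common to most genes. For dose, duration and software versions, no value is stated in the labels.

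The 64 control probe sets were set aside. Of the rest, 20380 have 1 gene symbol in the platform annotation, 691 several and 1555 none, and 20351 matched the RefSeq gene table (GRCm38.p6). A gene was represented by its probe set of highest mean. limma 3.58.1 in R 4.3.3 fitted 1 mean per group over all 9 arrays (lmFit and eBayes, 6 residual and 3.9 prior degrees of freedom), with Benjamini-Hochberg adjustment over 12393 genes. The number of arrays limits the precision. The fit was tested on simulated data.

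The members and lists were chosen with earlier results of these data known. Named genes were a set of pathway genes, up to 4 called genes of largest difference per list and comparison, and the 5 most like each chemokine; others are marked in the text. The deviations of same-numbered arrays were checked for pairing. No 2 arrays held identical values.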

Additional observations from a re-analysis of the deposited data

How the results depend on the processing

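Leaving out any array changed no member difference beyond the spread between replicates and no count over all genes by over 1.5 times. The replicate block moved no such count by over 1.5 times either. It cannot alter a group difference, because every group holds each replicate number 1 time. A further quantile normalization also left both within these limits, but RMA had already quantile-normalized the arrays, so little could move. The scale mattered most, since spike-in levels were highest with butyrate, and the cause was not tested. On the hybridization and poly-A spike-in scales, butyrate minus untreated was 0.89 and 1.02 for Cxcl9, 0.31 and 0.44 for Cxcl10, 0.14 and 0.27 for Cxcl11, -0.027 and 0.10 for Ifngr1, and -1.12 and -0.99 for Ifngr2. Butyrate minus TSA was 0.59 and 0.72 for Cxcl9, 0.82 and 0.94 for Cxcl10, 0.012 and 0.14 for Cxcl11, -0.67 and -0.54 for Ifngr1, and -0.61 and -0.48 for Ifngr2. With the mean of a gene's probe sets, Cxcl11 was 0.007 with TSA and 0.30 with butyrate against untreated, and Ifngr2 was -0.54 with butyrate. Over all genes, TSA against untreated gave 3262 higher and 2604 lower, and 1604 and 1597 on the poly-A scale. Butyrate against untreated gave 4166 higher and 3075 lower. The higher count was 932 and the lower 8417 on the hybridization scale, and the higher count was 828 on the poly-A scale and 2472 among genes above the median level. Butyrate against TSA gave 1968 higher and 2480 lower. The higher count was 93 and the lower 10047 on the hybridization scale, and the higher count was 59 on the poly-A scale and 1284 among genes above the median level.

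Counts of called list genes moved as follows on the hybridization scale. Butyrate against untreated gave 15 for receptor signalling, 4 for the related receptor chains and 7 for the upstream cytokines, the last now mostly lower (6 of 7). Butyrate against TSA gave 8 for signalling, 28 for interferon-gamma-induced genes, 16 for type I interferon-induced genes, 3 for the related chains, 7 for the CXCR3 receptors and modifiers, 8 for the CXC chemokines, 9 for the cytokines and 4 for the NF-kB subunits, mostly lower in each. On the poly-A scale TSA against untreated gave 1 for the related chains and 3 for the cytokines, and butyrate against untreated gave 1 and 6. Butyrate against TSA on that scale gave 3 for signalling, 7 for type I genes, 1 for the related chains, 3 for the receptors and modifiers, 1 for the CXC chemokines and 3 for the cytokines. Among genes above the median level the receptors and modifiers gave 2, 3 and 3 in the 3 comparisons, the CXC chemokines 3 and 3 against untreated, and the cytokines 5 with butyrate against untreated and 4 against TSA. With a trended and robust prior, butyrate against TSA gave 18 interferon-gamma-induced genes and 11 type I genes, the latter 5 higher and 6 lower. Quantile normalization gave 9 cytokines with butyrate (4 higher, 5 lower) and 1 NF-kB subunit between the inhibitors, and a fit on the 2 groups compared also gave 1. With 1 array left out, butyrate against TSA gave 6 to 11 interferon-gamma-induced genes, 4 to 8 cytokines and 1 to 2 NF-kB subunits.

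Of the named genes, these were called on the deposited scale and had the opposite sign on the hybridization and, where a second value stands, the poly-A scale; uncalled small differences such as those of Jak1, Irf9 and Cxcr3 between the inhibitors also changed sign (-0.38, -0.29 and -0.34 on the hybridization scale). So did Irf8, Igtp, Gbp7 and U90926, called between the inhibitors and named after their values were seen (-0.084, -0.136, -0.135 and -0.16). Butyrate minus untreated was -0.054 for Ifnar1, and -0.17 and -0.042 for Rsad2. Butyrate minus TSA was -0.15 and -0.024 for Ifnar1, -0.23 and -0.10 for Ptpn2, -0.17 and -0.041 for Il10ra, -0.16 and -0.032 for Cxcl15, -0.20 and -0.077 for Il1b, -0.035 for Stat2, -0.12 for Ptpn11 and -0.031 for Pf4.

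Same-numbered arrays deviated together little or not at all (r between -0.12 and 0.21). A weak shared source could stay hidden in the spread of single arrays, so whether the numbers pair the samples is not known. With the replicate block the NF-kB subunits called between the inhibitors were 1 instead of 2, the other 23 list counts stayed within 1.5 times, and 4 of 186 named-gene results were no longer called. Cxcl11 and Ifng lie near the lower end of the signal range, which limits what can be seen of them.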
